A study of Mus musculus with 12 samples.

Results

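The genes described here are 36 genes of blood and lymphatic endothelium, the cell layer that lines blood vessels and lymphatic vessels. They were listed by name, with earlier results of these data known, and all 36 were found among the 55228 genes of both count tables. All 36 also passed the filter on low counts, which kept 18805 genes. The study measured poly(A) RNA of mesenchyme, the connective and muscular layer, of the bladder and of the pelvic urethra in mouse embryos, to find genes that mark each compartment. All 4 groups were untreated wild-type CD-1 female embryos, at embryonic day E14.5 or E18.5, with bladder and urethral mesenchyme at each stage and 3 libraries in each group. The tissue was freed from epithelium with cold trypsin and forceps, and each library pooled the females of 1 litter, so a value is a litter's average and not that of an embryo. Vessels were not isolated: the endothelial genes are read here within whole mesenchyme, where fewer endothelial cells and less RNA per endothelial cell cannot be told apart.

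Endothelial cells grow toward vascular endothelial growth factor (VEGF), which they sense through the receptors Kdr and Flt1, and they are held together by the cadherin Cdh5 and the claudin Cldn5. Angiopoietins act on the receptor Tek to steady the vessel wall, and transcription factors of the Ets and SoxF families, such as Erg, Fli1 and Sox17, keep the endothelial programme on. Lymphatic endothelium arises from veins when Prox1 is switched on, responds to Vegfc and Vegfd through Flt4, and carries Lyve1 and Pdpn on its surface.

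Several of these genes are also known from other cells whose markers were measured in the libraries. Lyve1 is found on tissue macrophages, Pdpn on mesothelium and fibroblasts, Cd34 on fibroblasts, Prox1 and Reln in neurons, and Mmrn1 and Vwf in megakaryocytes and platelets. Levels are CPM, the counts of a gene scaled to a common library total after TMM normalization, given by replicate from 1 to 3. Totals ran from 21495169 to 36349777 counts per library, so 3 counts correspond to 0.0825 to 0.1396 CPM, a floor that covers counting error only. Log2 differences are bladder minus urethra or E18.5 minus E14.5, ± SE, from the quasi-likelihood F test of edgeR with Benjamini-Hochberg adjustment over all 18805 genes, and a gene is called where adjusted p is under 0.05. In the first principal component of all genes, replicate 1 of both E14.5 groups lay closer to the E18.5 libraries than did replicates 2 and 3. E14.5 bladder replicate 1 also held more epithelial (1077 CPM summed over 10 markers, against 310.1 and 187.2) and mesothelial marker RNA (1002 CPM over 8 markers, against 249.7 and 466.6). E14.5 urethral replicate 1 did so too, at 1185 CPM against 521.6 and 623.0 for the epithelial and 289.1 against 203.1 and 185.9 for the mesothelial markers. The sum of 9 skeletal muscle markers was 266.9 CPM against 28.9 and 16.9 in E14.5 bladder, and 140.4 against 10.2 and 12.8 in E14.5 urethral mesenchyme. Counts of called genes without replicate 1 of both E14.5 groups are given beside the counts below.

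The defining blood endothelial genes were present in every library. Summed over the 36 genes, the level was 1250.0, 1812 and 1441 CPM in E14.5 bladder, 1258, 893 and 1038 in E14.5 urethral, 1452, 1475 and 1195 in E18.5 bladder and 1636, 1647 and 1464 in E18.5 urethral mesenchyme. The sum was lowest in E14.5 urethral replicate 2 and highest in E14.5 bladder replicate 2. The E14.5 groups overlapped, as E14.5 bladder replicate 1 lay just under E14.5 urethral replicate 1. Per kilobase of exon, Cdh5 had the highest mean level of the 36 genes over the 4 groups, at 27.0 CPM per kilobase. It was followed by Eng, a TGF-beta co-receptor, at 25.2, Plvap, the protein of fenestral diaphragms, at 22.8, and Pdpn at 19.9 CPM per kilobase. The lowest were Mmrn1 at 1.28 and Reln, a large secreted glycoprotein, at 0.261 CPM per kilobase. Part of the exons of Nos3 (32.3%), Rasip1 (22.5%) and Sox17 (16.8%) lies opposite exons of other genes, and part of Rasip1 (20.4%) and Egfl7 (9.4%) is shared with a gene on the same strand. The strand setting of the counting is not given in the sources used here, so the levels of these 4 genes are uncertain.

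**Figure D1:**
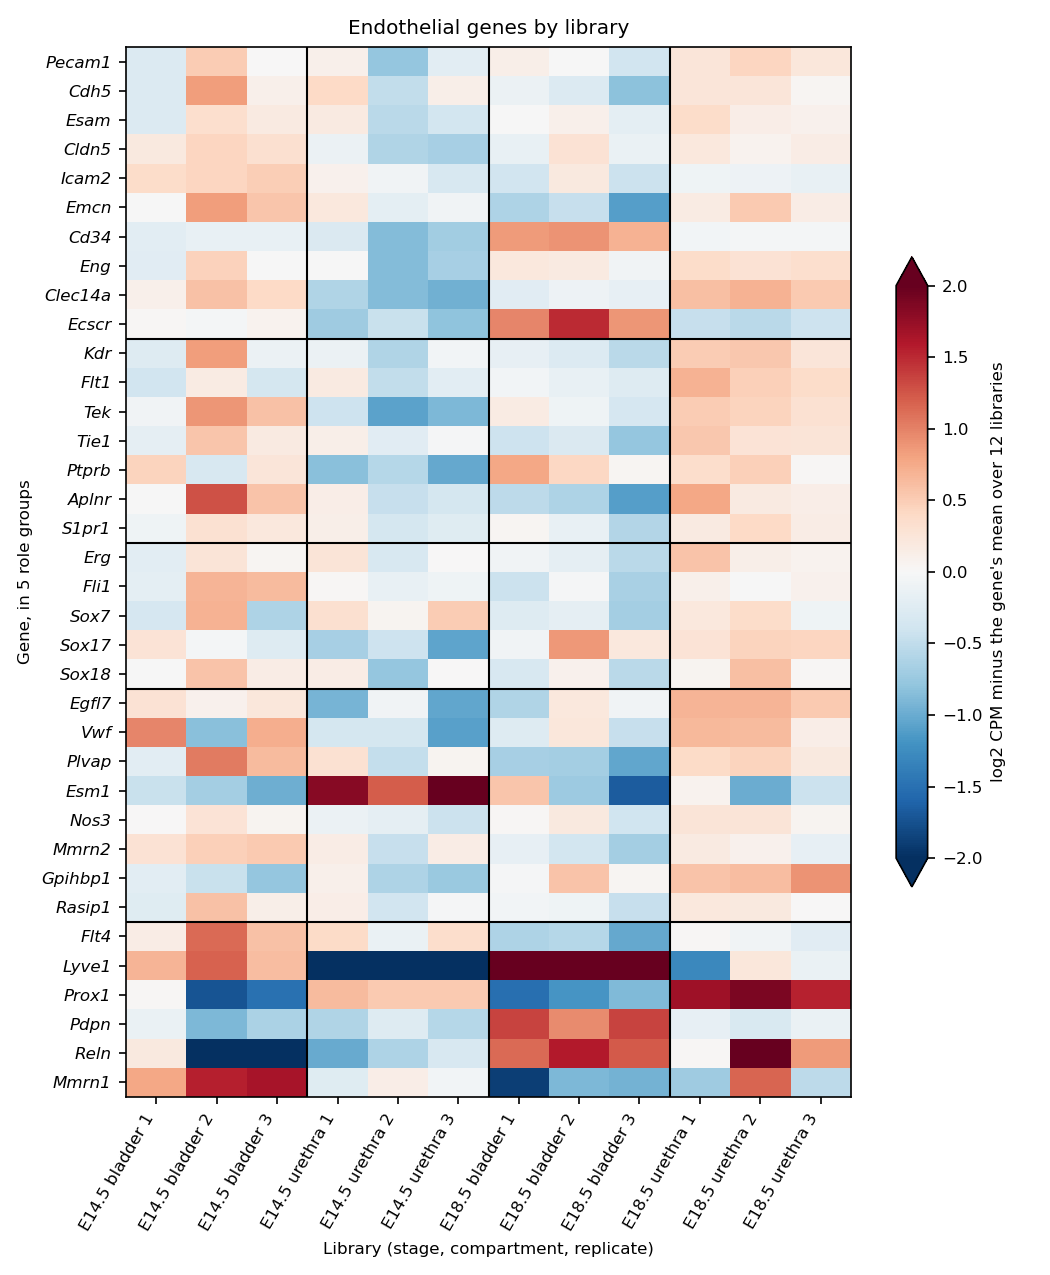
Log2 level of each of the 36 genes in each of the 12 libraries relative to the gene's mean over all libraries, with genes grouped by role and libraries by stage and compartment. Lyve1 is high in both bladder groups, Prox1 in both urethral groups, and Cd34, Ecscr and Pdpn stand out in E18.5 bladder mesenchyme.

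Most of the genes had a higher level in bladder at E14.5 and a higher level in urethra at E18.5 by the sign of the estimate. At E14.5, 10 of the 36 genes were called higher in bladder mesenchyme (27.8%, against 12.4% of all genes tested) and 2 higher in urethral mesenchyme (12.5% of all genes). At E18.5, 4 were called higher in bladder (18.52% of all genes) and 10 higher in urethral mesenchyme (27.8%, against 16.2% of all genes). The median log2 difference of the 36 genes was 0.46 at E14.5 and -0.47 at E18.5, beside medians over all genes of -0.004 and 0.047. In all, 25 of the 36 were higher in bladder at E14.5 and higher in urethra at E18.5, a pattern of 13.8% of all genes tested. Of these, 4 genes (Clec14a, Aplnr, Egfl7 and Mmrn1) were called in both directions, as were 0.277% of all genes. Lyve1, Cd34 and Ecscr were called higher in bladder at both stages and Prox1 higher in urethra at both, while 10 of the 36 genes were called in none of the comparisons. The shares of all genes with these last patterns were not computed.

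These counts moved with single libraries. Without E14.5 bladder replicate 3 or without E14.5 urethral replicate 3, 5 genes rather than 10 were called higher in bladder at E14.5, and 1 rather than 2 higher in urethra without E14.5 bladder replicate 3. The 10 called higher in urethra at E18.5 became 5 without E18.5 bladder replicate 3 and 6 without E18.5 urethral replicate 1. Without replicate 1 of both E14.5 groups, the counts at E14.5 were 13 and 3, and those at E18.5 were 4 and 13. Here and below, counts from other fits stand without the share of all genes called in the same fit. They therefore do not show whether the listed genes moved apart from all genes. Beside these differences, the sum of 9 red cell markers was 1322 to 1607 CPM in E14.5 bladder against 736 to 1055 in E14.5 urethral mesenchyme, and 652 to 952 against 699.8 to 732 at E18.5. The sum of 7 smooth muscle markers was 6325 to 8199 against 1646 to 3512 CPM at E14.5 and 20820.0 to 37630.0 against 2375 to 2731 at E18.5. The part of either in the endothelial values was not tested.

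**Figure D2:**
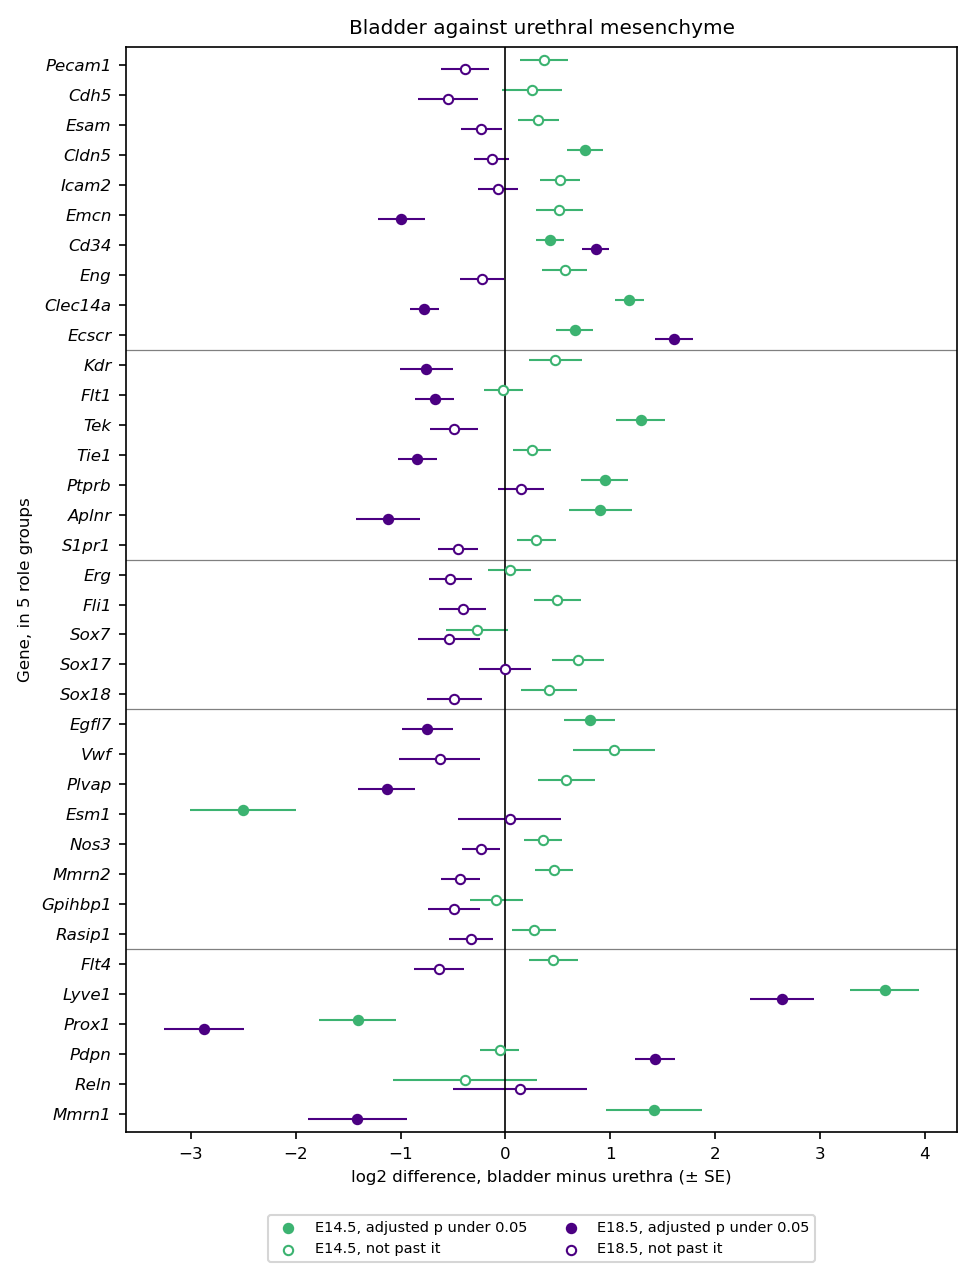
Log2 difference, bladder minus urethra, of each of the 36 genes at E14.5 and at E18.5, ± SE, with filled points where adjusted p is under 0.05. The E14.5 points lie mostly to the right of 0 and the E18.5 points mostly to the left, while the filled points of Lyve1, Cd34, Ecscr and Pdpn lie to the right at E18.5 and those of Prox1 to the left at both.

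Among the 10 surface and junction proteins, 4 were called higher in bladder at E14.5, and at E18.5 there were 2 called higher in each compartment. Clec14a, a C-type lectin of sprouting vessels (chr12:58264720-58269290 of GRCm38), had the smallest adjusted p of the 36 genes for the change between stages. Clec14a was at 48.0, 67.4 and 59.2 CPM in E14.5 bladder, 29.4, 24.6 and 22.9 in E14.5 urethral, 38.3, 41.5 and 40.0 in E18.5 bladder and 67.7, 72.8 and 64.2 in E18.5 urethral mesenchyme. The bladder libraries lay above all urethral libraries at E14.5 and below all of them at E18.5. The log2 difference was 1.18 ± 0.14, adjusted p = 0.000185 at E14.5 and -0.77 ± 0.14, adjusted p = 0.00082 at E18.5, and the change of -1.95 ± 0.19, adjusted p = 0.000673 was called. With stage, Clec14a fell in bladder by 0.54 on the log2 scale (adjusted p = 0.006) and rose 2.66-fold in urethra (1.41 ± 0.14, adjusted p = 0.00015). It was the only one of the 36 genes called down in bladder and up in urethra, and all 5 calls held when any single library was left out.

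Cd34 and Ecscr were higher in bladder at both stages. Cd34, a sialomucin of endothelium that fibroblasts also carry, was at 108, 112 and 113 CPM in E14.5 bladder, 102, 68.6 and 77.3 in E14.5 urethral, 225, 233 and 202 in E18.5 bladder and 121, 122 and 122 in E18.5 urethral mesenchyme. The E18.5 bladder libraries lay well above all the others. Cd34 was higher in bladder at E14.5 (0.43 ± 0.13, adjusted p = 0.0323) and E18.5 (0.86 ± 0.13, adjusted p = 0.000317), and rose with stage in bladder (0.99 ± 0.13, adjusted p = 0.000101) and in urethra (0.55 ± 0.13, adjusted p = 0.00986). Ecscr, a small membrane protein of endothelial cells, was at 15.6, 15.1 and 16.2 CPM in E14.5 bladder, 9.41, 11.3 and 8.84 in E14.5 urethral, 30.3, 43.4 and 28.3 in E18.5 bladder and 11.2, 10.6 and 11.6 in E18.5 urethral mesenchyme. Again the E18.5 bladder libraries stood above the rest, and the 2 urethral groups overlapped. Ecscr was higher in bladder at E14.5 (0.66 ± 0.18, adjusted p = 0.0171) and E18.5 (1.61 ± 0.18, adjusted p = 3.2e-05), a difference that grew by 0.95 ± 0.25 (adjusted p = 0.0333). The E14.5 call of Cd34 ended without E14.5 bladder replicate 1, 2 or 3, E14.5 urethral replicate 2 or 3 or E18.5 urethral replicate 3 (adjusted p = 0.05 to 0.107). Its urethral stage call ended without E14.5 urethral replicate 3 (adjusted p = 0.0513). That of Ecscr at E14.5 ended without E14.5 bladder replicate 3 or E14.5 urethral replicate 3 (adjusted p = 0.0558 to 0.0666). The Ecscr change was not called when any single library was left out, other than E14.5 bladder replicate 1, E14.5 urethral replicate 1 or 3 or E18.5 bladder replicate 1 or 3 (adjusted p = 0.0569 to 0.0806).

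The cadherin Cdh5 (chr8:104101625-104144511), the gene most used to define endothelium, was at 90.6, 194 and 117 CPM in E14.5 bladder, 143, 77.1 and 118 in E14.5 urethral, 101, 90.5 and 61.7 in E18.5 bladder and 129.6, 129 and 112 in E18.5 urethral mesenchyme. The groups overlapped at E14.5, where bladder replicate 2 was highest, whereas at E18.5 every bladder library lay under every urethral library. No comparison of Cdh5 passed the threshold (log2 difference 0.25 ± 0.29, adjusted p = 0.553 at E14.5 and -0.55 ± 0.29, adjusted p = 0.168 at E18.5). Pecam1, Esam and Eng, further general endothelial surface proteins, also had no compartment call, with log2 differences of 0.37, 0.31 and 0.57 at E14.5 and -0.38, -0.23 and -0.22 at E18.5. Cldn5, the tight junction claudin, was higher in bladder at E14.5, at 28.8 ± 2.39 against 17.0 ± 3.67 CPM (SD, n = 3; 0.76 ± 0.17, adjusted p = 0.00759), and not called at E18.5 (-0.13 ± 0.17, adjusted p = 0.604). Emcn, the sialomucin endomucin of veins and capillaries (chr3:137341067-137432185), was called higher in urethra at E18.5, at 28.8 ± 4.33 against 14.49 ± 3.18 CPM (SD, n = 3; -0.99 ± 0.23, adjusted p = 0.00444), while its E14.5 difference was not called (0.52 ± 0.22, adjusted p = 0.11). In bladder, Emcn (-1.21 ± 0.23, adjusted p = 0.001) and the adhesion molecule Icam2 (-0.61 ± 0.19, adjusted p = 0.0198) fell with stage. In urethra, Eng (0.80 ± 0.22, adjusted p = 0.0191) and Cldn5 (0.59 ± 0.17, adjusted p = 0.0262) rose. Of these calls, that of Icam2 ended without E14.5 bladder replicate 3 or E18.5 bladder replicate 1 or 3 (adjusted p = 0.0605 to 0.0844). That of Eng ended without E14.5 urethral replicate 2 or 3 or E18.5 urethral replicate 1 or 3 (adjusted p = 0.0501 to 0.0857). The urethral call of Cldn5 ended without E14.5 urethral replicate 2 or 3 or E18.5 urethral replicate 1, 2 or 3 (adjusted p = 0.0553 to 0.113).

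**Figure D3:**
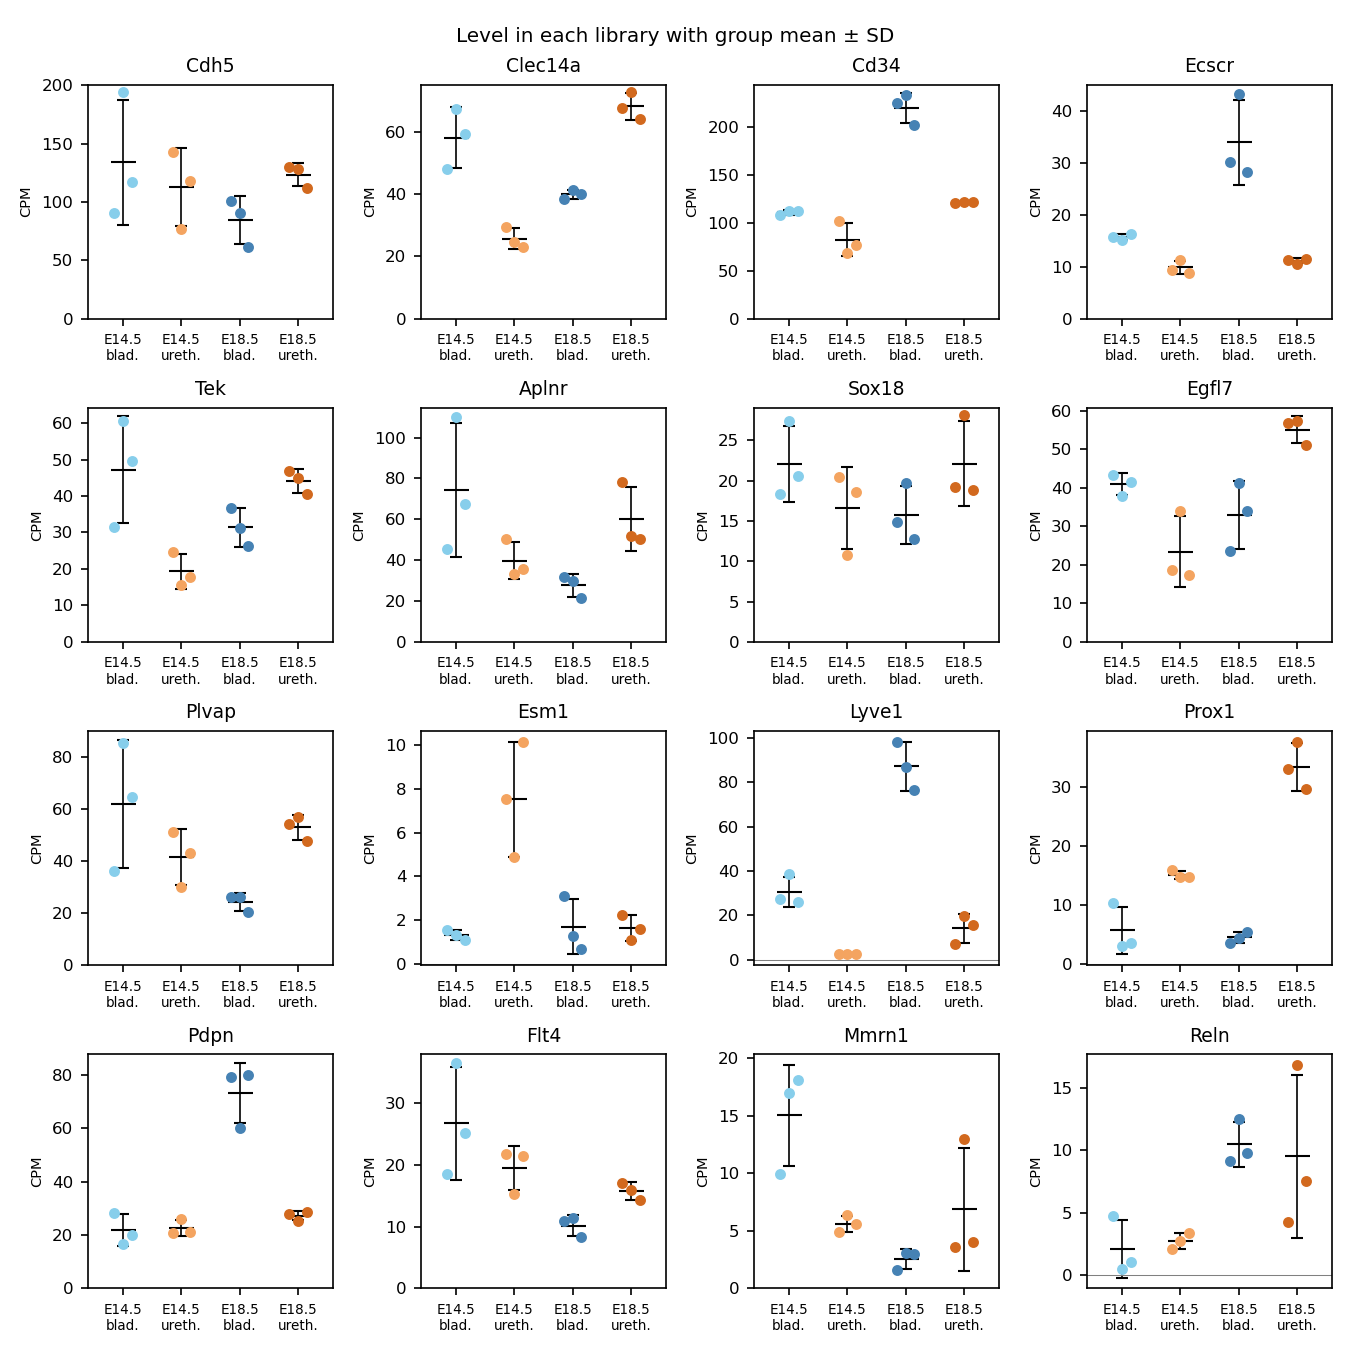
Level in CPM of the 16 genes whose values in every library are given, 3 libraries per group, with bars for the mean ± SD of each group. Clec14a, Tek and Aplnr show bladder above urethra at E14.5 and below it at E18.5, Lyve1 and Prox1 keep opposite sides at both stages, and Esm1 is raised in E14.5 urethral mesenchyme.

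Of the 7 receptors, 3 were called higher in bladder at E14.5 (Tek, Ptprb and Aplnr) and 4 higher in urethra at E18.5 (Kdr, Flt1, Tie1 and Aplnr). Tek, the angiopoietin receptor (chr4:94739289-94874976), was at 31.5, 60.5 and 49.5 CPM in E14.5 bladder, 24.7, 15.7 and 17.6 in E14.5 urethral, 36.8, 31.1 and 26.3 in E18.5 bladder and 46.9, 44.9 and 40.6 in E18.5 urethral mesenchyme. All E14.5 bladder libraries lay above all E14.5 urethral ones, and the order was turned round at E18.5. Tek was higher in bladder at E14.5 (1.29 ± 0.23, adjusted p = 0.00219), the E18.5 difference was not called (-0.49 ± 0.23, adjusted p = 0.118), and the change was (-1.78 ± 0.32, adjusted p = 0.00651). It rose in urethra with stage (1.19 ± 0.23, adjusted p = 0.00367). Aplnr, the apelin receptor of venous and sprouting endothelium (chr2:85136225-85139923), was at 45.4, 110.2 and 67.6 CPM in E14.5 bladder, 50.3, 33.1 and 35.9 in E14.5 urethral, 31.9, 29.8 and 21.4 in E18.5 bladder and 78.3, 52.0 and 50.5 in E18.5 urethral mesenchyme. Bladder replicate 2 and urethral replicate 1 were the high libraries of the E14.5 groups, which overlapped, and the E18.5 bladder libraries were the lowest of the 12. The Aplnr difference was 0.91 ± 0.30, adjusted p = 0.0482 at E14.5 and -1.12 ± 0.31, adjusted p = 0.0135 at E18.5, the change was -2.03 ± 0.43, adjusted p = 0.0151, and Aplnr fell with stage in bladder (-1.43 ± 0.31, adjusted p = 0.00284). The E14.5 call of Aplnr ended when any single library was left out, other than E14.5 bladder replicate 1, E14.5 urethral replicate 1 or E18.5 urethral replicate 1 (adjusted p = 0.0531 to 0.203) and with a replicate block (adjusted p = 0.0717). Its E18.5 call ended without E18.5 bladder replicate 3 or E18.5 urethral replicate 1 (adjusted p = 0.0595 to 0.0606).

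Among the other receptors, the receptor tyrosine kinase Tie1 was at 42.6 ± 7.05 CPM in E18.5 bladder against 76.1 ± 8.47 in E18.5 urethra (SD, n = 3; -0.84 ± 0.18, adjusted p = 0.0034). It fell with stage in bladder (-0.70 ± 0.18, adjusted p = 0.00818), and its compartment difference changed by -1.09 ± 0.26, adjusted p = 0.0218, a call that ended without E18.5 bladder replicate 3 or E18.5 urethral replicate 1 (adjusted p = 0.0507 to 0.0571). Kdr, the main VEGF receptor, was at 81.8 ± 10.6 against 138 ± 14.7 CPM at E18.5 (SD, n = 3; -0.75 ± 0.25, adjusted p = 0.0359). That call ended without E18.5 bladder replicate 1, 2 or 3 or E18.5 urethral replicate 1 or 2 (adjusted p = 0.0605 to 0.123). It also ended with the replicate numbers, taken from correlations to pair the E18.5 samples, as a replicate block (adjusted p = 0.0559). Flt1, the VEGF receptor that also acts as a decoy, was higher in urethra at E18.5 (-0.68 ± 0.19, adjusted p = 0.0131) and rose in urethra (0.67 ± 0.19, adjusted p = 0.0204). The E18.5 call of Flt1 ended without E18.5 bladder replicate 3 or E18.5 urethral replicate 1 (adjusted p = 0.0516 to 0.0587). Its stage call ended without E14.5 urethral replicate 2 or 3 or E18.5 urethral replicate 1 or 2 (adjusted p = 0.0509 to 0.0775). Ptprb, the phosphatase that restrains Tek, was higher in bladder at E14.5 (0.95 ± 0.22, adjusted p = 0.00987) and rose in urethra (1.09 ± 0.22, adjusted p = 0.00512). Without replicate 1 of both E14.5 groups, Ptprb was not called at E14.5 (adjusted p = 0.0612). The sphingosine phosphate receptor S1pr1 was called in no comparison, with compartment differences of 0.30 and -0.45.

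None of the 5 transcription factors was called between the compartments at either stage. With edgeR, 2 of the 5 passed an unadjusted p under 0.05 at E14.5, both higher in bladder, and 1 at E18.5, higher in urethra. DESeq2 called 1 at E14.5 and 1 at E18.5 in those directions, and limma-voom called 0. Sox18, the SoxF factor with the highest level per kilobase in the group, was at 18.4, 27.4 and 20.6 CPM in E14.5 bladder, 20.4, 10.8 and 18.6 in E14.5 urethral, 14.9, 19.7 and 12.7 in E18.5 bladder and 19.2, 28.2 and 18.8 in E18.5 urethral mesenchyme. All 4 groups of Sox18 overlapped their neighbours, and its differences were 0.41 ± 0.26, adjusted p = 0.271 at E14.5 and -0.49 ± 0.26, adjusted p = 0.183 at E18.5. The Ets factors Erg and Fli1 had E18.5 differences of -0.53 and -0.41, and the SoxF factor Sox7 of -0.54, while the means of Sox17 were 17.5 and 17.5 CPM (adjusted p = 0.997). With stage, Fli1 fell in bladder (-0.77 ± 0.22, adjusted p = 0.0135), a call that ended without E14.5 bladder replicate 2 or 3 or E18.5 bladder replicate 3 (adjusted p = 0.0592 to 0.0612). Sox17, which arterial endothelium carries, rose in urethra from 8.33 ± 1.81 to 17.5 ± 1.14 CPM (SD, n = 3; 1.07 ± 0.25, adjusted p = 0.00946).

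Of the 8 specialised, secreted and adaptor proteins, Egfl7 was called higher in bladder and Esm1 higher in urethra at E14.5, and Egfl7 and Plvap higher in urethra at E18.5. Egfl7, a secreted factor of the vessel matrix, was at 43.4, 37.8 and 41.4 CPM in E14.5 bladder, 18.7, 34.0 and 17.4 in E14.5 urethral, 23.5, 41.2 and 33.8 in E18.5 bladder and 56.8, 57.2 and 50.9 in E18.5 urethral mesenchyme. It was above urethra in every bladder library at E14.5 and below it in every bladder library at E18.5. Its difference was 0.80 ± 0.24, adjusted p = 0.0319 at E14.5 and -0.74 ± 0.24, adjusted p = 0.0314 at E18.5, with a change of -1.55 ± 0.35, adjusted p = 0.0171 and a rise in urethra of 1.23 ± 0.25, adjusted p = 0.00442. The Egfl7 call at E14.5 ended without E14.5 bladder replicate 1, 2 or 3 or E14.5 urethral replicate 1 or 3 (adjusted p = 0.0558 to 0.111), and that at E18.5 without E18.5 bladder replicate 1 or 3 or E18.5 urethral replicate 1, 2 or 3 (adjusted p = 0.053 to 0.114). Plvap was at 36.2, 85.5 and 64.7 CPM in E14.5 bladder, 51.4, 30.0 and 43.3 in E14.5 urethral, 26.3, 26.2 and 20.3 in E18.5 bladder and 54.3, 57.1 and 47.8 in E18.5 urethral mesenchyme. The E18.5 bladder libraries were the lowest for Plvap, and the E14.5 groups overlapped. Its E18.5 difference was -1.13 ± 0.27, adjusted p = 0.00656, its E14.5 difference was not called (0.58 ± 0.27, adjusted p = 0.134), and it fell in bladder with stage (-1.36 ± 0.27, adjusted p = 0.00174), so that the compartment difference changed by -1.71 ± 0.38, adjusted p = 0.0179.

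Esm1, the secreted proteoglycan of tip cells at the front of growing vessels (chr13:113209659-113218098), was called higher in urethra at E14.5. Esm1 was at 1.55, 1.33 and 1.08 CPM in E14.5 bladder, 7.52, 4.89 and 10.2 in E14.5 urethral, 3.10, 1.29 and 0.671 in E18.5 bladder and 2.23, 1.06 and 1.58 in E18.5 urethral mesenchyme. The 3 E14.5 urethral libraries were above the other 9, in which the level was low. It was 5.68-fold lower in bladder than in urethra at E14.5 (-2.51 ± 0.50, adjusted p = 0.00427), and fell in urethra by 2.19 on the log2 scale with stage (± 0.49, adjusted p = 0.00748). At E18.5 no difference was called (0.04 ± 0.49, adjusted p = 0.96). The change of 2.55 ± 0.70, adjusted p = 0.0411 lost its call when any single library was left out, other than E14.5 bladder replicate 1, E14.5 urethral replicate 2 or E18.5 bladder replicate 3 (adjusted p = 0.0505 to 0.116), and was 1.73 without E18.5 bladder replicate 1. Mmrn2, a matrix protein that binds Clec14a, fell in bladder (-0.83 ± 0.19, adjusted p = 0.00316). Gpihbp1, the capillary carrier of lipoprotein lipase, rose in bladder (0.67 ± 0.25, adjusted p = 0.0452) and in urethra (1.08 ± 0.25, adjusted p = 0.00954). The bladder call of Gpihbp1 ended when any single library was left out, other than E14.5 bladder replicate 1, E14.5 urethral replicate 1, 2 or 3 or E18.5 bladder replicate 1 (adjusted p = 0.0556 to 0.181). Its urethral call ended without E14.5 urethral replicate 3 (adjusted p = 0.0504). Vwf, the clotting factor stored in endothelium, had the widest uncalled differences of the group, 1.04 ± 0.39, adjusted p = 0.0765 at E14.5 and -0.63 ± 0.39, adjusted p = 0.25 at E18.5. The nitric oxide synthase Nos3 and the adaptor Rasip1 were called in no comparison.

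The 6 lymphatic genes were called in both directions at each stage, 2 higher in bladder and 1 in urethra at E14.5 and 2 in each at E18.5. Lyve1, the hyaluronan receptor (chr7:110850607-110863239), had the largest bladder excess of the 36 genes. Lyve1 was at 27.1, 38.5 and 25.9 CPM in E14.5 bladder, 2.53, 2.56 and 2.35 in E14.5 urethral, 98.3, 86.9 and 76.4 in E18.5 bladder and 6.97, 19.8 and 15.4 in E18.5 urethral mesenchyme. Every bladder library lay above every urethral one at both stages, and both compartments rose with stage. The level in bladder was 12.3-fold that in urethra at E14.5 (3.62 ± 0.33, adjusted p = 5.5e-05) and 6.23-fold at E18.5 (2.64 ± 0.30, adjusted p = 5.59e-05). With stage it rose by 1.51 ± 0.29, adjusted p = 0.00131 in bladder and by 2.49 ± 0.32, adjusted p = 0.000488 in urethra, and all 4 calls held when any single library was left out. The difference itself did not pass the test of a change between stages (-0.98 ± 0.42, adjusted p = 0.181).

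Prox1, the transcription factor that sets lymphatic identity (chr1:190118035-190170714), had the opposite distribution. Prox1 was at 10.4, 3.11 and 3.63 CPM in E14.5 bladder, 16.0, 14.8 and 14.7 in E14.5 urethral, 3.59, 4.50 and 5.53 in E18.5 bladder and 33.0, 37.7 and 29.6 in E18.5 urethral mesenchyme. All urethral libraries lay above all bladder libraries at both stages, with bladder replicate 1 highest among the bladder libraries at E14.5. Prox1 was 2.66-fold lower in bladder at E14.5 (-1.41 ± 0.37, adjusted p = 0.0158) and 7.34-fold lower at E18.5 (-2.88 ± 0.38, adjusted p = 0.000129), and rose in urethra with stage (1.14 ± 0.35, adjusted p = 0.0346). Without E14.5 bladder replicate 1 the E14.5 difference was -2.18, and its call ended without E14.5 bladder replicate 3 (adjusted p = 0.0649), while the rise in urethra was not called without E14.5 urethral replicate 1, 2 or 3 or E18.5 urethral replicate 1, 2 or 3 (adjusted p = 0.0633 to 0.108). Lyve1 and Prox1, which lymphatic endothelium carries together, had called differences of opposite sign at both stages.

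Levels of other cells' markers were read beside these differences. The summed level of 10 macrophage markers was 152 to 195 CPM in E14.5 bladder, 75.9 to 129.6 in E14.5 urethral, 327 to 412 in E18.5 bladder and 258 to 272 in E18.5 urethral mesenchyme . The sum was higher in bladder at both stages, and Mrc1 made up 33.8% of it. Of the 10 markers, 3 were called higher in bladder at E14.5, with a median log2 difference of 0.47 over the list. At E18.5 there were 2 called in each direction, 6 of the 10 estimates were negative and the median was -0.41. Those called higher in urethra at E18.5 were the complement gene C1qa (-0.86 ± 0.25, adjusted p = 0.0178) and the Fc receptor Fcgr1 (-0.84 ± 0.27, adjusted p = 0.0267). Among those called higher in bladder was Mrc1, a receptor of resident macrophages, higher in bladder at E14.5 (1.72 ± 0.21, adjusted p = 0.000243) and E18.5 (1.52 ± 0.21, adjusted p = 0.000145). The general macrophage receptor Csf1r was called at neither (0.39 ± 0.24, adjusted p = 0.255 and 0.30 ± 0.24, adjusted p = 0.376). The summed level of 10 neuronal markers was 94.5 to 439 CPM in E14.5 bladder, 668 to 1038 in E14.5 urethral, 82.3 to 192 in E18.5 bladder and 717 to 1891 in E18.5 urethral mesenchyme. Of these, 9 of 10 were called higher in urethra at E14.5 and 10 of 10 at E18.5, and E14.5 bladder replicate 1, the highest bladder library for Prox1, was also the highest of its group for the neuronal sum. None of the macrophage or neuronal markers was at 0 in all libraries of a group. The part of these cells in the Lyve1 and Prox1 differences was not tested.

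Pdpn, the mucin-like glycoprotein podoplanin (chr4:143267431-143299564), was at 28.3, 16.7 and 20.1 CPM in E14.5 bladder, 20.6, 26.0 and 21.0 in E14.5 urethral, 79.3, 60.2 and 79.7 in E18.5 bladder and 27.8, 25.2 and 28.5 in E18.5 urethral mesenchyme. The E18.5 bladder libraries stood above the other 9, which overlapped. Pdpn was not called at E14.5 (-0.05 ± 0.19, adjusted p = 0.861), was higher in bladder at E18.5 (1.43 ± 0.19, adjusted p = 0.00011), and rose 3.37-fold in bladder with stage (1.75 ± 0.19, adjusted p = 2.75e-05), so that the difference changed by 1.48 ± 0.26, adjusted p = 0.00586. Its 3 calls held when any single library was left out. The summed level of 8 mesothelial markers was 249.7 to 1002 CPM in E14.5 bladder, 186 to 289 in E14.5 urethral, 3458 to 4563 in E18.5 bladder and 714 to 1098 in E18.5 urethral mesenchyme, highest in the group where Pdpn was highest. Upk1b (37.4%) and Krt19 (34.6%) made up most of that sum. Of the 8, 4 were called higher in bladder at E14.5 and 6 at E18.5, and none was at 0 in all libraries of a group. The sum of 10 epithelial markers was also highest in E18.5 bladder, at 6507 to 8569 CPM. It was 187.2 to 1077 in E14.5 bladder, 521.6 to 1185 in E14.5 urethral and 2142 to 3229 in E18.5 urethral mesenchyme. The part of mesothelial or epithelial cells in the Pdpn difference was not tested.

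Flt4, the receptor for Vegfc and Vegfd, was at 18.45, 36.5 and 25.2 CPM in E14.5 bladder, 21.7, 15.3 and 21.4 in E14.5 urethral, 10.9, 11.3 and 8.25 in E18.5 bladder and 17.1, 15.9 and 14.3 in E18.5 urethral mesenchyme. It was lowest in the E18.5 bladder libraries, which lay under those of every other group. Flt4 fell in bladder by 1.40 on the log2 scale with stage (± 0.24, adjusted p = 0.00056), and its compartment differences were not called (0.46 ± 0.24, adjusted p = 0.174 at E14.5 and -0.63 ± 0.24, adjusted p = 0.0566 at E18.5). Mmrn1, the secreted multimerin of lymphatic endothelium and platelets (chr6:60924976-60989378), was at 9.96, 17.0 and 18.1 CPM in E14.5 bladder, 4.91, 6.33 and 5.58 in E14.5 urethral, 1.57, 3.11 and 3.01 in E18.5 bladder and 3.55, 13.0 and 4.03 in E18.5 urethral mesenchyme. The E14.5 bladder libraries were above the E14.5 urethral ones, the E18.5 bladder libraries were below all E18.5 urethral ones, and E18.5 urethral replicate 2 stood apart from replicates 1 and 3. Mmrn1 was higher in bladder at E14.5 (1.42 ± 0.46, adjusted p = 0.0399) and lower at E18.5 (-1.41 ± 0.47, adjusted p = 0.0345), changed by -2.83 ± 0.66, adjusted p = 0.0204, and in bladder fell with stage by 2.55 on the log2 scale (± 0.48, adjusted p = 0.00107).

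Without E18.5 urethral replicate 2 the E18.5 difference of Mmrn1 was -0.57 and the change -1.99. That library also held the most platelet and megakaryocyte marker RNA, 62.6 CPM over 7 markers against 22.9 and 26.4 in replicates 1 and 3. Of the 7, only 4 passed the filter on low counts. Over all libraries, Pf4 (51.3%) and Ppbp (27.4%) made up most of the sum. In E18.5 urethral mesenchyme Ppbp averaged 24.0 CPM, where the sum averaged 37.3. The part of these cells in the Mmrn1 value was not tested. The E14.5 call of Mmrn1 ended when any single library was left out, other than E14.5 bladder replicate 1, E18.5 bladder replicate 1 or E18.5 urethral replicate 1, 2 or 3 (adjusted p = 0.0504 to 0.12). Its E18.5 call ended without E18.5 bladder replicate 1, 2 or 3 or E18.5 urethral replicate 2 (adjusted p = 0.0569 to 0.25). The call of its change ended without E14.5 bladder replicate 3 or E18.5 bladder replicate 1 (adjusted p = 0.0511 to 0.053). Reln was at 4.75, 0.497 and 1.04 CPM in E14.5 bladder, 2.08, 2.72 and 3.34 in E14.5 urethral, 9.11, 12.5 and 9.75 in E18.5 bladder and 4.23, 16.8 and 7.50 in E18.5 urethral mesenchyme. The E18.5 bladder libraries lay above all E14.5 libraries, and E18.5 urethral replicate 2 was the highest of the 12. Reln rose in bladder (2.32 ± 0.70, adjusted p = 0.0175), by 3.77 without E14.5 bladder replicate 1, and the call ended without E14.5 bladder replicate 3 (adjusted p = 0.0668). Its compartment differences were -0.38 ± 0.69, adjusted p = 0.717 at E14.5 and 0.14 ± 0.64, adjusted p = 0.896 at E18.5.

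Over the stages, calls ran in both directions in bladder and nearly all upward in urethral mesenchyme. In bladder, 6 of the 36 genes rose (23.7% of all genes tested) and 10 fell (22.0% of all genes), with a median log2 difference of -0.34. In urethra, 12 rose (13.6% of all genes) and 1, Esm1, fell (10.8%), with a median of 0.42. The genes that rose in bladder were Cd34, Ecscr, Gpihbp1, Lyve1, Pdpn and Reln, of which 3 belong to the lymphatic group. Those that fell in bladder were Icam2, Emcn, Clec14a, Tie1, Aplnr, Fli1, Plvap, Mmrn2, Flt4 and Mmrn1. In bladder the shares of the 36 genes were 16.7% and 27.8%, near those of all genes, whereas the 12 that rose in urethra made up 33.3% of the 36. The 12 became 6 without E14.5 urethral replicate 3, and without replicate 1 of both E14.5 groups the counts were 6 and 14 in bladder and 18 and 1 in urethra. Other lists rose in urethra over the same stages: 10 of 10 macrophage markers, 7 of 9 early response genes, 6 of 10 epithelial and 6 of 10 pericyte markers were called higher at E18.5. In bladder these counts were 5, 5, 10 and 6. Their part in the endothelial values was not tested.

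**Figure D4:**
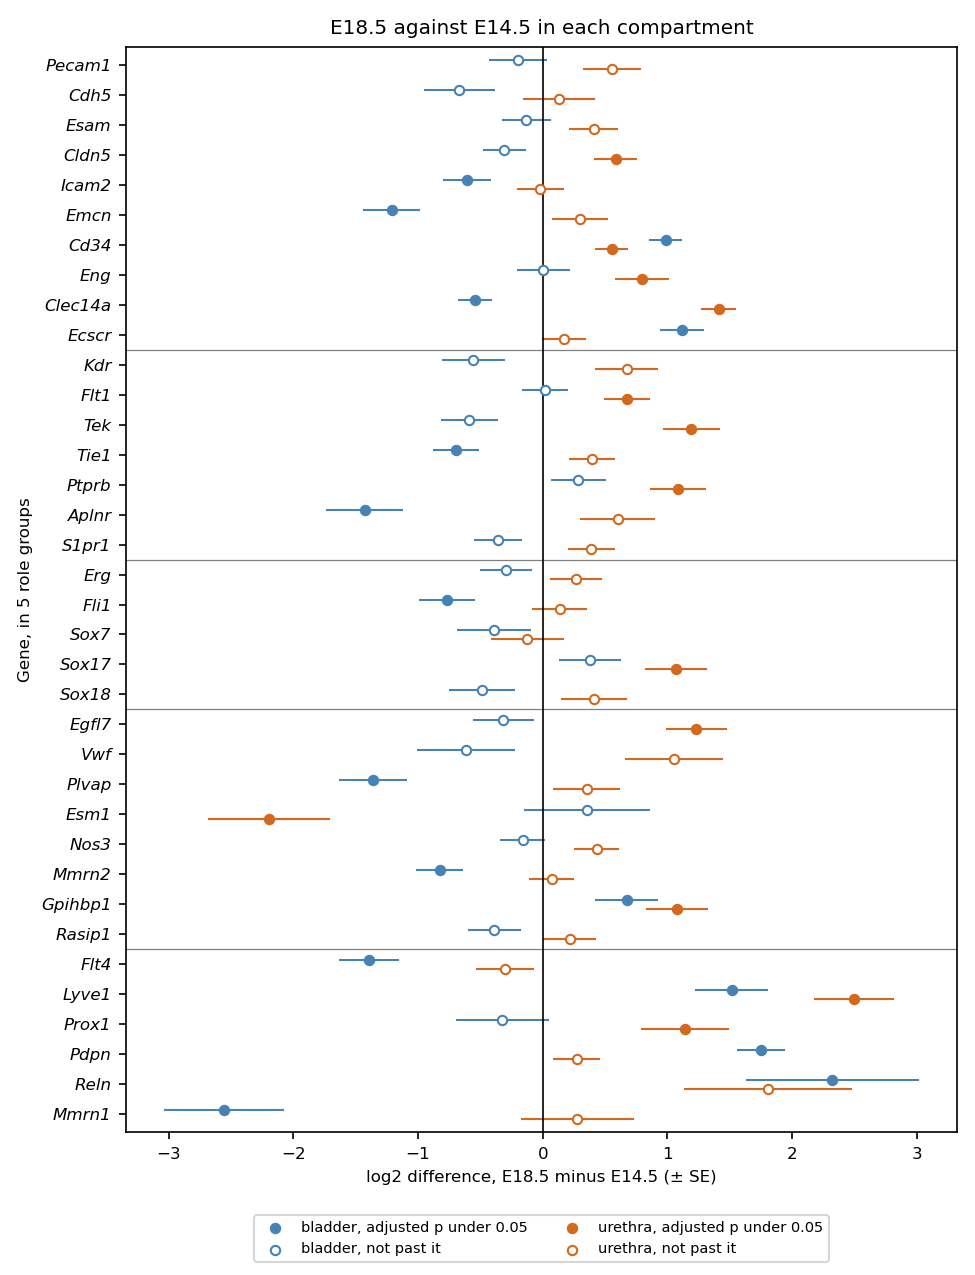
Log2 difference, E18.5 minus E14.5, of each of the 36 genes in bladder and in urethral mesenchyme, ± SE, with filled points where adjusted p is under 0.05. By sign, 22 of the 36 genes lie left of 0 in bladder and right of 0 in urethra, a pattern of 11.1% of all genes tested.

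The test of the change itself compared the bladder minus urethra difference at E18.5 with that at E14.5. It called 9 genes with a fall (4.03% of all genes tested) and 3 with a rise (4.64%), with a median of -0.80. The 9 were Cldn5, Emcn, Clec14a, Tek, Tie1, Aplnr, Egfl7, Plvap and Mmrn1, and the 3 were Ecscr, Esm1 and Pdpn. The Emcn change was -1.51 ± 0.32, adjusted p = 0.0129 and that of Cldn5 -0.89 ± 0.24, adjusted p = 0.0386. The Cldn5 call ended when any single library was left out, other than E14.5 bladder replicate 1, E14.5 urethral replicate 1 or E18.5 bladder replicate 2 (adjusted p = 0.0655 to 0.0918). With a replicate block, Cldn5 (adjusted p = 0.0594) and Ecscr (adjusted p = 0.0604) were not called. The 3 rises became 1 without E14.5 bladder replicate 2 or 3, E18.5 bladder replicate 2 or any E18.5 urethral library. Without replicate 1 of both E14.5 groups, 19 falls and 2 rises were called.

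A further comparison used, in each library, the ratio of each gene's count to a summed count. The sum was over 20 other endothelial genes, such as Gata2, Heg1 and Robo4, that are not among the 36. Gata2 (19.3%) and Heg1 (16.1%) made up the largest parts of that sum, and neither is limited to endothelium. Both also differed between groups: Gata2 was higher in urethra at E14.5 (-1.32 ± 0.28, adjusted p = 0.00628) with a difference that rose by the test of the change (adjusted p = 0.0358), and Heg1 was higher in bladder at E18.5 (0.91 ± 0.21, adjusted p = 0.00495). Stab1, also in the sum, was called higher in bladder at both stages (0.99 and 0.59) and rose in both compartments, while Ets1 fell in both. The mean sum was 735.8 CPM in E14.5 bladder and 910.0 in E18.5 bladder. A ratio can thus fall with stage in bladder where the CPM does not. On this scale, libraries of the 2 compartments did not overlap for 13 of the 36 genes at E14.5, 11 with bladder higher and 2 with urethra higher (32.5% of all genes in either direction). At E18.5 they did not overlap for 30, 4 with bladder higher and 26 with urethra higher (45.0% of all genes). On the CPM scale, 15 of the 36 genes did not overlap at E14.5 (13 with bladder higher and 2 with urethra higher, against 37.7% of all genes in either direction) and 26 at E18.5 (4 and 22, against 52.1% of all genes). Over stage in bladder, the ratio was lower at E18.5 without overlap for 23 genes and higher for 5 (52.9% of all genes in either direction), while the CPM was lower for 9 and higher for 6 (55.8%). In urethra the ratio was higher for 17 and lower for 2 (42.1%), and the CPM was higher for 20 and lower for 1 (44.0%). The median log2 difference of the ratio was 0.54 at E14.5 and -0.63 at E18.5. With Gata2 and Heg1 left out of the sum, a setting chosen after seeing the data, 7 genes had bladder higher without overlap and 3 had urethra higher at E14.5, with a median of 0.26. At E18.5 these counts were 4 and 20, with a median of -0.40. Over stage they were 5 higher and 17 lower in bladder, and 11 higher and 3 lower in urethra. The share of all genes was not computed with this shorter sum, so these counts have no background beside them.

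**Figure D5:**
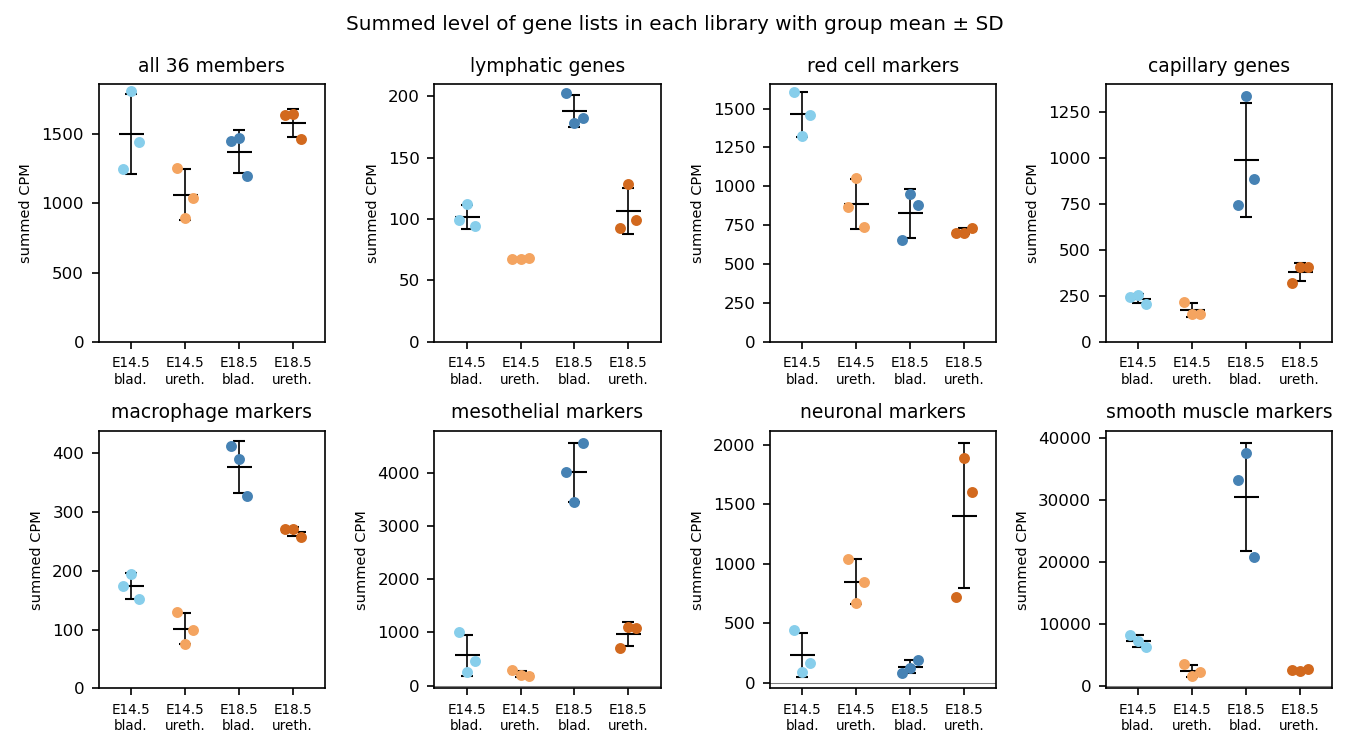
Summed CPM in each library, with bars for the mean ± SD of each group, of the 36 genes, the 6 lymphatic genes and the red cell, capillary, macrophage, mesothelial, neuronal and smooth muscle lists. The 36-gene sum spans 892.9 to 1812 CPM, the mesothelial sum is highest in E18.5 bladder mesenchyme and the neuronal sum is higher in both urethral groups.

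Sequence upstream of the gene was searched in all listed genes with a promoter window, and is printed for 4 whose compartment difference changed. RefSeq promoter windows of the GRCm38.p6 build, the 250 bases before the RefSeq start, were found for 18 of the 36 genes, and a window is printed up to the gene start of the count tables. The windows of 4 genes (Clec14a, Tek, Emcn and Pdpn) are shown because these had the smallest adjusted p for the change among called genes with a window beside the start in the count tables. Pdpn is the one of them whose difference rose. They lie at chr12:58269291-58269508 (minus strand, 218 bases, 6 matches) for Clec14a, chr4:94739039-94739288 (plus strand, 250 bases, 2 matches) for Tek, chr3:137340828-137341066 (plus strand, 239 bases, 4 matches) for Emcn and chr4:143299565-143299814 (minus strand, 250 bases, 3 matches) for Pdpn. Each is written 5′ to 3′ on the gene's strand, and capitals mark GGAA, the core of sites bound by Ets factors such as Erg and Fli1, on either strand (GGAA or TTCC).
Clec14a: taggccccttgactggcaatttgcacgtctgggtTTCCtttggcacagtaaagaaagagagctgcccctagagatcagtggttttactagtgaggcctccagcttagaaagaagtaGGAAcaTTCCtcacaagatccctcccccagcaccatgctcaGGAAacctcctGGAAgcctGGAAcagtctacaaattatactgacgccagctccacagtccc
Tek: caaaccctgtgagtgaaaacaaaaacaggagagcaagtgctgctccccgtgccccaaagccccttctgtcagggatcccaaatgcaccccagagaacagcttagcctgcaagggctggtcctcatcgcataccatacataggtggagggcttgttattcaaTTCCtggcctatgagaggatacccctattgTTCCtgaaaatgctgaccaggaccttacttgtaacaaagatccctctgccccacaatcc
Emcn: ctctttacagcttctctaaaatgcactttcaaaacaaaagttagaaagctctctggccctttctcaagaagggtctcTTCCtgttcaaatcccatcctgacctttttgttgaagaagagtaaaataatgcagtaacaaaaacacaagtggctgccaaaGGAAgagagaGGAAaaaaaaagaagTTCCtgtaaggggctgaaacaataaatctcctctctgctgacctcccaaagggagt
Pdpn: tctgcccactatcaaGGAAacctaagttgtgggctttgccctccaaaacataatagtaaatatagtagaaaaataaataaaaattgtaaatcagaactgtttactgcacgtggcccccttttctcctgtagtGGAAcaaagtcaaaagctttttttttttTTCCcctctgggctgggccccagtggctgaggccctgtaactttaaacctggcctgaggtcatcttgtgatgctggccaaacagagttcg

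All 4 windows held the core. It was found in 16 of the 18 endothelial windows (88.9%) and in 93.37% of 27025 promoter windows of the same table, with a median of 3.5 matches against 3 in all. The longer letters CGGAAG were in 2 of 18 (11.1%, against 13.76% of all) and AGGAAG in 7 (38.9%, against 29.15%), both containing GGAA. The letters ACAATG, which SoxF factors can bind, were in 1 (5.56%, against 10.99%), the window of Mmrn1. The RefSeq starts of Prox1, Tie1, Flt4, Egfl7 and Mmrn1 lay 113 to 19341 bases from the gene starts of the count tables, that of Mmrn1 farthest. GATAAG, which Gata factors can bind, was in 0 (against 6.598%). All motifs were searched on both strands, and a match describes letters in the window, not a bound site.

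Other genes of vessel biology that are not among the 36 were read from named lists. Of 20 other endothelial genes, 4 were called higher in bladder and 1 in urethra at E14.5, and 3 in each at E18.5. Gpr182, an endothelial chemokine scavenger, was at 3.38 CPM in E14.5 bladder and 0.415 in E14.5 urethra (3.03 ± 0.36, adjusted p = 0.000213), was not called at E18.5 (-0.35 ± 0.32, adjusted p = 0.453), and changed by -3.37 ± 0.48, adjusted p = 0.00237, in the direction of Clec14a and Tek. Stab2, a hyaluronan receptor of sinusoidal endothelium, was higher in bladder at E14.5 (2.44 ± 0.58, adjusted p = 0.0101) and E18.5 (4.19 ± 0.55, adjusted p = 0.000115), as Lyve1 was, and with only the E14.5 libraries fitted its E14.5 call ended (adjusted p = 0.0503). The junction regulator Heg1 was higher in bladder at E18.5 (0.91 ± 0.21, adjusted p = 0.00495).

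Of 11 VEGF, angiopoietin and apelin ligands, 2 were called higher in bladder and 1 in urethra at E14.5, and 3 and 4 at E18.5. Angpt2, the angiopoietin that endothelium itself releases, rose in urethra from 10.9 to 35.5 CPM (1.70 ± 0.22, adjusted p = 0.00047), was higher in urethra at E18.5 (-1.94 ± 0.22, adjusted p = 4.73e-05) and changed by -1.82 ± 0.31, adjusted p = 0.00477. Angpt1, the activating ligand of Tek, was higher in urethra at E14.5 (-1.14 ± 0.26, adjusted p = 0.00885) and E18.5 (-2.63 ± 0.28, adjusted p = 2.88e-05), so that at E14.5 ligand and receptor were higher on opposite sides. Its change was -1.49 ± 0.37, adjusted p = 0.0289, a call that ended when any single library was left out, other than E14.5 bladder replicate 1, E14.5 urethral replicate 1 or E18.5 bladder replicate 2 (adjusted p = 0.0519 to 0.0762) and with a replicate block (adjusted p = 0.0705). Vegfd, a ligand of Flt4, was higher in bladder at E14.5 (1.94 ± 0.24, adjusted p = 0.000278) and E18.5 (2.19 ± 0.24, adjusted p = 3.51e-05). Vegfa, the ligand of Kdr and Flt1, was called at neither (-0.52 ± 0.28, adjusted p = 0.202 and 0.06 ± 0.28, adjusted p = 0.905).

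Lists of vessel types gave calls in both directions. Of 12 arterial genes, 2 were called higher in bladder and 3 in urethra at E14.5, and 1 and 3 at E18.5. Efnb2, the arterial ephrin that mesenchyme also makes, was higher in urethra at E14.5 (-2.11 ± 0.26, adjusted p = 0.000263) and changed by 1.65 ± 0.35, adjusted p = 0.0146. Hey1, a Notch target, was higher in urethra at E14.5 (-1.08 ± 0.26, adjusted p = 0.011) and E18.5 (-1.54 ± 0.26, adjusted p = 0.000694). Of 6 venous genes, 1 was called in each direction at E14.5, and 1 higher in bladder and 2 in urethra at E18.5. Sele, E-selectin of activated endothelium, was higher in bladder at E18.5 (2.96 ± 0.58, adjusted p = 0.00183), at 26.8 against 3.46 CPM. At E14.5 it was also called higher in bladder (3.15 ± 0.76, adjusted p = 0.0116), at 1.56 against 0.165 CPM. That call ended with limma-voom (adjusted p = 0.0829) and without replicate 1 of both E14.5 groups (adjusted p = 0.0791). Of 9 capillary genes, 4 and 1 were called at E14.5 and 3 and 2 at E18.5, led by the fatty acid carrier Fabp4, which fat cells also make, at 402 against 51.9 CPM at E18.5 (2.95 ± 0.58, adjusted p = 0.00243). Fabp4 was also higher in bladder at E14.5 (3.46 ± 0.70, adjusted p = 0.00574), a call that ended with limma-voom (adjusted p = 0.093). Of 7 lymphatic growth and chemokine genes tested, 2 were called higher in urethra at E14.5, and 2 in each direction at E18.5. Foxc2, the factor of lymphatic valves, was higher in urethra at E14.5 (-1.16 ± 0.32, adjusted p = 0.0194) and E18.5 (-2.07 ± 0.34, adjusted p = 0.000525). Its E14.5 call ended without E14.5 bladder replicate 2 or 3 or E14.5 urethral replicate 3 (adjusted p = 0.0513 to 0.0635). Thy1, which fibroblasts also carry, was higher in bladder at E18.5 (2.93 ± 0.46, adjusted p = 0.000579). Ccl21a, the eighth gene of that list, did not pass the filter on low counts.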

How the data were processed

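The authors deposited 1 table of raw, unscaled gene counts per stage, which per the file headers also gives each gene's coordinates and summed exon length. Per the submitters' processing notes, bcl2fastq, HISAT2 2.2.1, SAMtools 1.9 and GRCm38 were used. Which counting tool, strand setting and annotation were used is not given in the sources used here. Counts of 2 were 2.06 to 2.51 times as frequent as counts of 1 within a library, as when both mates of a fragment are counted, and the counting floors may then be too narrow. The 37 mitochondrial genes held 0 counts.

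The filter was filterByExpr of edgeR 4.0.16 with a minimum count of 10, normalization was by TMM, and robust quasi-likelihood tests were run in R 4.3.3. A single model of 4 group means over all 12 libraries (8 residual degrees of freedom) gave every comparison, with Benjamini-Hochberg adjustment over 18805 genes within each. Alternatives were DESeq2 1.42.0, limma-voom (limma 3.58.1), size factors by median ratio, testing without the filter, and a stricter filter. The stricter filter asked for 1 CPM on average over all libraries and 10 counts in each library of at least 1 group. Further runs dropped each library in turn or replicate 1 of both E14.5 groups, fitted the compared libraries alone, or used a replicate block. Deviations from the group means of same-numbered bladder and urethral libraries correlated at 0.197, 0.193 and 0.286 at E18.5, each library best with its own number, and the numbers were taken to pair these samples. At E14.5 the values were 0.191, -0.028 and 0.206, and no pairing was taken. No sample label states a pairing at either stage. The main model held no block, and the replicate block covered both stages. Replicates of a group differed beyond sampling noise (chi-square per degree of freedom 16.2 to 86.6).

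Values in every library are given for the gene with the highest level per kilobase in each of 5 role groups and for up to 4 called genes per direction in each comparison, those with the largest log2 differences among genes reaching 1 CPM in the higher group. Of other lists, up to 2 called genes per comparison and the highest uncalled gene could be named. Gata2, Stab1, Ets1, C1qa and Fcgr1 were named after their values were seen. The genes and lists were chosen with earlier results of these data known. Tested on simulated data with known changes, edgeR found 46% of 2-fold and 86% of 4-fold changes at E14.5 on 18481 genes with 5.71% false calls, and 14% and 63% for the change between stages on 18478 genes with 2.53%.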

Additional observations from a re-analysis of the deposited data

Results flagged for a closer look

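The genes below were marked because the test of the difference between the 2 stages, for the same bladder minus urethra contrast, passed the threshold in edgeR. The change of the log2 difference from E14.5 to E18.5 was -0.89 for Cldn5, -1.51 for Emcn, -1.95 for Clec14a, -1.78 for Tek, -1.09 for Tie1, -2.03 for Aplnr, -1.55 for Egfl7, -1.71 for Plvap and -2.83 for Mmrn1. It was 0.95 for Ecscr, 2.55 for Esm1 and 1.48 for Pdpn. Among vessel genes outside the 36 it was -3.37 for Gpr182, -1.49 for Angpt1, -1.82 for Angpt2 and 1.65 for Efnb2. For Clec14a, Aplnr, Egfl7 and Mmrn1 the called differences had opposite signs at the 2 stages, whereas for Pdpn and Esm1 the difference was called at 1 stage. Of those with opposite signs, Clec14a alone kept both calls when any single library was left out. With limma-voom, the E14.5 call of Aplnr (adjusted p = 0.0514) and the E18.5 call of Mmrn1 (adjusted p = 0.109) also ended.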

How the results depend on the processing

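No called value of the 36 genes changed direction under any alternative run. Of 67 calls over the 5 comparisons, 66 held with median-ratio size factors, 67 with DESeq2, 62 with limma-voom, 61 with no low-count filter, 66 with the stricter filter and 62 without the E14.5 replicate 1 libraries. Fitting only the libraries compared gave 6 genes higher in bladder and 1 in urethra at E14.5, and 18 in urethra at E18.5. For the change between stages, DESeq2 called 15 falls, the fit that drops the replicate 1 libraries of E14.5 called 19, and limma-voom 1 rise. Leaving out 1 library in turn gave 5 to 13 genes higher in bladder and 1 to 3 in urethra at E14.5, 4 and 5 to 13 at E18.5, 4 to 6 rising and 8 to 14 falling in bladder, 6 to 15 rising and 1 falling in urethra, and 1 to 3 rises and 7 to 13 falls of the compartment difference. Where no value shows it, the cause of these shifts was not tested. With a replicate block, 10 and 2 genes were called at E14.5, 4 and 9 at E18.5, and 2 rises and 9 falls of the difference, and of the calls named above, those of Aplnr, Kdr, Cldn5, Ecscr and Angpt1 ended. With 3 libraries a group, 14% of simulated 2-fold changes between stages were recovered. The simulation changed fewer genes than were called in the data, and drew them from all levels. That share is therefore not a measure for the 36 genes. An uncalled gene is not shown to be unchanged.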
